A study of Mus musculus with 4 samples.

Results

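Oct4, Sox2 and Nanog are the transcription factors at the centre of the network that keeps embryonic stem cells (ESCs) pluripotent. Oct4, encoded by Pou5f1, and Sox2 bind DNA side by side at composite elements, many of which lie near their own genes and near Nanog, so the network sustains itself. These factors are expressed both in the naive state, which resembles the preimplantation epiblast, and in the later primed state. The 10 genes described here are Pou5f1, Sox2, Nanog, Sall4, Zfp296, Utf1, Dppa5a, Fbxo15, Lin28a and Tcl1, taken by symbol from the 23235 genes listed in the deposited expression tables. They were chosen as core factors and abundant ESC genes that are not restricted to the naive state. No measured value entered the rule, but earlier results of these data were known when it was made. The study itself counts Sall4 and Zfp296 among naive pluripotency genes.

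The cells were mouse haploid ESCs (haESCs) of HG165, a single androgenetic line derived from young C57BL/6 mice, so the results rest on 1 line. Poly(A) RNA was sequenced from 2 samples treated with DMSO, the solvent, and 2 treated with RDF, a cocktail of the TGF-β receptor inhibitor Repsox, the BMP receptor inhibitor DMH1 and the adenylyl cyclase activator Forskolin. The general culture medium was serum medium with leukemia inhibitory factor. The labels describe culture on feeder cells, while the study's methods leave feeders out of most experiments and do not name RNA-seq among the exceptions, so whether these samples had feeders is not settled by the sources used here. The doses and length of treatment of these samples, their ploidy, and any sorting before RNA extraction are not given in the sources used here. The labels do not say whether replicates were separate cultures, so the p-values measure only the spread between these samples, which may be technical. Values are FPKM, fragment numbers scaled to transcript length and to the mapped fragments of the library.

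FPKM hold no fragment counts, but the steps of low values in long single-transcript genes give depth estimates of 9400000 to 12600000 fragments per library. Of these low values, 41.4% to 44.4% lay within 0.1 fragment of a whole number, against 20.0% if they were spread evenly. Each depth was picked to make this share as high as possible, so the excess over 20.0% is no test of it. The estimates are approximate and were not checked in another way. At this depth the least covered value among the 10 genes, Zfp296 in DMSO replicate 1, rests on about 316 fragments, which gives a counting error of about 5.63%. Fibroblast markers, listed for possible feeder cells, were detected in every library, with 12 of 12 above 0 and a summed level of 41.4 to 43.2 FPKM in DMSO and 24.9 to 27.3 FPKM in RDF. They did not move together, as 4 of 9 tested fell, such as Col1a1 (10.5 to 2.39 FPKM, limma adjusted p = 0.000577), and 2 rose, namely Dcn (1.57 to 7.04 FPKM, adjusted p = 0.00112) and Prrx1 (0.648 to 1.65 FPKM, adjusted p = 0.0124). Trophoblast markers summed to 48.7 to 51.9 FPKM in DMSO and 82.5 to 87.3 FPKM in RDF, mostly from Tfap2c, which naive ESCs also express. Of 6 tested, 4 rose, among them Tfap2c (26.1 to 49.5 FPKM, adjusted p = 0.00119), Gata3 (0.814 to 2.83 FPKM, adjusted p = 0.0032) and Hand1 (3.65 to 6.55 FPKM, adjusted p = 0.00821). Cdx2 lay between 0.0952 and 0.735 FPKM, and Elf5 was listed at 0 in DMSO replicate 2 and lay between 0.542 and 0.565 FPKM in the other libraries. The primitive endoderm markers summed to 6.28 to 7.70 FPKM in DMSO and 10.5 to 11.1 FPKM in RDF, with Sox17 below 1 FPKM throughout, and of the 2 tested, Gata6 rose (2.14 to 4.27 FPKM, adjusted p = 0.0428). The neural markers summed to 3.27 to 3.34 FPKM in DMSO and 3.71 to 4.38 FPKM in RDF, with Sox1 below 1 FPKM throughout and Neurod1 listed at 0 in DMSO replicate 2. The part of these other cell types in the results was not tested, and fewer cells of a type cannot be told apart from less RNA per cell in such bulk samples. All 10 genes were above 21 FPKM in all 4 libraries. They were chosen as abundant in ESCs with earlier results known, so their level is no independent check of the labelled cell type.

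All 10 genes passed the filter of a mean of at least 1 FPKM, and 8 of them changed between DMSO and RDF at an adjusted p under 0.05, with 4 higher and 4 lower. Among all 11733 genes tested, 21.6% were called, 13.3% higher and 8.28% lower in RDF. Sall4, Zfp296, Fbxo15 and Sox2 rose, Tcl1, Dppa5a, Utf1 and Pou5f1 fell, and Nanog and Lin28a did not pass. The median log2 fold change over the 10 genes was -0.06 and the median size of the change 0.46, against 0.03 and 0.16 over all genes tested. The RDF and DMSO values did not overlap for 9 of the 10 genes, which was also so for 65.5% of all genes, 37.1% higher and 28.5% lower in RDF. Only Tcl1 among the 10 changed more than 2-fold, as did 1.41% of all genes. Rescaling the libraries to the same summed FPKM moved the split of all calls from 1561 higher and 972 lower to 1832 and 706, and left the 8 calls and their directions in place.

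**Figure D1:**
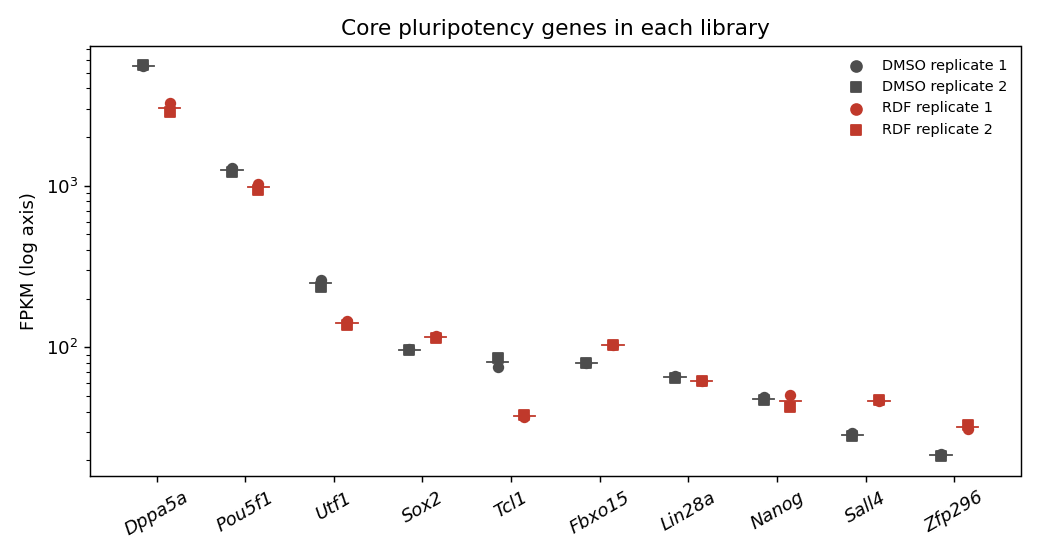
FPKM of the 10 genes in each of the 4 libraries, on a log axis, with points for single libraries of DMSO and RDF and short horizontal lines for the group means. Dppa5a and Pou5f1 lie far above the other genes in both groups, and Nanog is the only gene whose groups overlap.

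Oct4 and Sox2 moved in opposite directions, and Nanog did not pass the test. Pou5f1 (chromosome 17 from 35642982 to 35647721, plus strand, NCBIM37) was at 1285 and 1223 FPKM in DMSO and 1031 and 939 FPKM in RDF. Both RDF libraries were below both DMSO libraries. Its mean decreased by 21.5%, from 1254 ± 43.9 to 985 ± 64.7 FPKM (SD, n = 2 per group), with a log2 fold change of -0.35 (SE 0.0768, 95% interval -0.54 to -0.16, limma adjusted p = 0.0261). This call is lost without DMSO replicate 1 (adjusted p = 0.0535), RDF replicate 1 (0.0876) or RDF replicate 2 (0.171), and without the filter on low values (0.0697).

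Sox2 (chromosome 3 from 34548927 to 34551383, plus strand), the partner of Oct4 on DNA and a factor that neural progenitors also use, was at 97.3 and 95.8 FPKM in DMSO and 117 and 114 FPKM in RDF. The libraries of each group lay close together, with RDF above DMSO. The mean was 19.9% higher in RDF (96.6 ± 1.08 to 116 ± 2.04 FPKM, SD, n = 2 per group; log2 fold change 0.26, SE 0.0511, limma adjusted p = 0.0187). The call is lost without DMSO replicate 2 (adjusted p = 0.0567), RDF replicate 1 (0.109) or RDF replicate 2 (0.0942), and without the mean-variance trend (0.0525).

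Nanog (chromosome 6 from 122657507 to 122664651, plus strand), the homeodomain factor that stabilises self-renewal, was at 49.6 and 47.0 FPKM in DMSO and 50.6 and 42.6 FPKM in RDF. The highest and the lowest of the 4 values were both RDF libraries, so the groups overlapped. Its log2 fold change was -0.06 (SE 0.0894, limma adjusted p = 0.682), and its 95% interval ran from -0.27 to 0.16. Pou5f1 and Nanog have processed copies elsewhere in the mouse genome, as has Dppa5a, and how reads with more than one mapping place were treated is not given in the sources used here, so their levels carry that uncertainty.

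The zinc finger factors Sall4 and Zfp296 rose the most of the 10 genes. Sall4 (chromosome 2 from 168573832 to 168593443, minus strand), which binds AT-rich DNA and works with Oct4 and the NuRD corepressor, was at 29.5 and 28.3 FPKM in DMSO and 46.4 and 47.5 FPKM in RDF. The gap between groups was many times the spread within either. Its mean was 62.3% higher (28.9 ± 0.810 to 46.9 ± 0.799 FPKM, SD, n = 2 per group; log2 fold change 0.68, SE 0.0562, limma adjusted p = 0.00164), and it stood at the 97.8 percentile of the log2 fold changes of all genes tested.

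Zfp296 (chromosome 7 from 20162636 to 20166005, plus strand), which assists reprogramming to pluripotency, was at 21.9 and 21.2 FPKM in DMSO and 31.1 and 33.0 FPKM in RDF. It was the least abundant of the 10 genes in every library, and its groups did not overlap. The mean was 48.5% higher in RDF (log2 fold change 0.55, SE 0.0621, limma adjusted p = 0.00387). Sall4 and Zfp296 kept their calls under all 12 alternative settings, at log2 fold changes of 0.61 to 0.73 and 0.51 to 0.62.

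Utf1 fell. This chromatin-associated factor (chromosome 7 from 147129688 to 147131011, plus strand) is a classical target of Oct4 and Sox2, and was at 262 and 237 FPKM in DMSO and 146 and 138 FPKM in RDF. Both RDF values lay far below the lower DMSO value. Its mean decreased by 43.0%, from 249 ± 17.8 to 142 ± 5.81 FPKM (SD, n = 2 per group), with a log2 fold change of -0.80 (SE 0.0694, limma adjusted p = 0.00192). The call held in all 12 alternatives, at -0.88 to -0.73.

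Dppa5a (chromosome 9 from 78214859 to 78215984, minus strand) encodes an RNA-binding protein that is very abundant in ESCs and germ cells. It was at 5493 and 5539 FPKM in DMSO and 3232 and 2839 FPKM in RDF. The DMSO libraries were nearly equal and the RDF libraries were both lower, and further from each other. The mean decreased by 45.0%, from 5516 ± 32.3 to 3035 ± 277 FPKM (SD, n = 2 per group), with a log2 fold change of -0.86 (SE 0.101, limma adjusted p = 0.00421), and the call is lost without RDF replicate 2 (adjusted p = 0.0674). Among all genes of a library it ranked 10 by FPKM in both DMSO samples, and 29 and 36 in the RDF samples. This gene alone held 0.759% and 0.725% of the summed FPKM in DMSO and 0.447% and 0.395% in RDF, out of 1.03% and 0.971%, and 0.672% and 0.607%, for the 10 genes together.

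Tcl1 (chromosome 12 from 106454967 to 106460947, minus strand), which binds and activates the kinase Akt and favours ESC proliferation, changed the most. It was at 75.8 and 85.7 FPKM in DMSO and 37.3 and 38.1 FPKM in RDF. The RDF libraries were almost equal and lay below the lower DMSO value by more than the DMSO libraries differed. Its mean decreased by 53.3% (80.8 ± 6.98 to 37.7 ± 0.584 FPKM, SD, n = 2 per group; log2 fold change -1.08, SE 0.0718, 95% interval -1.25 to -0.90, limma adjusted p = 0.000957). Only 0.648% of the genes tested had a log2 fold change as low or lower, and the call held in all 12 alternatives, at -1.16 to -0.99.

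Fbxo15 (chromosome 18 from 85104550 to 85150768, plus strand), an F-box protein gene known as an early reporter of reprogramming and also a target of Oct4 and Sox2, was at 80.7 and 79.7 FPKM in DMSO and at 103 FPKM in both RDF libraries. The spread within each group was very small, and all RDF values were higher. The mean was 29.0% higher (log2 fold change 0.36, SE 0.050, limma adjusted p = 0.00677). Without RDF replicate 1 or 2 the adjusted p was 0.0587 or 0.0632.

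Lin28a (chromosome 4 from 133559245 to 133574756, minus strand), the RNA-binding protein that blocks maturation of let-7 microRNAs, was at 66.6 and 64.4 FPKM in DMSO and 62.4 and 62.3 FPKM in RDF. The RDF values were both below the DMSO values, by little. The log2 fold change of -0.07 (SE 0.0523, limma adjusted p = 0.370) did not pass, and its 95% interval, ran from -0.20 to 0.06.

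**Figure D2:**
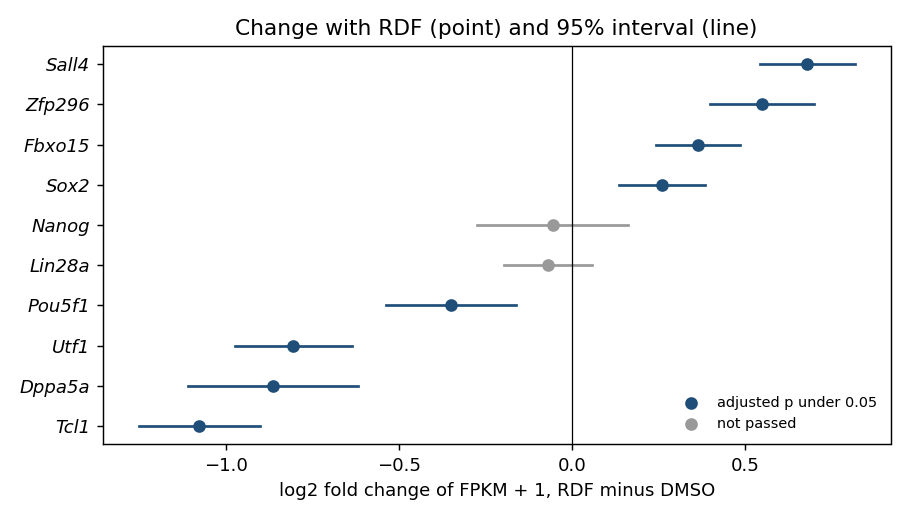
Log2 fold change, RDF against DMSO, on log2(FPKM + 1), for each of the 10 genes, with lines for limma's 95% intervals. Sall4 is highest at 0.68 and Tcl1 lowest at -1.08, and the intervals of Nanog and Lin28a span 0.

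**Figure D3:**
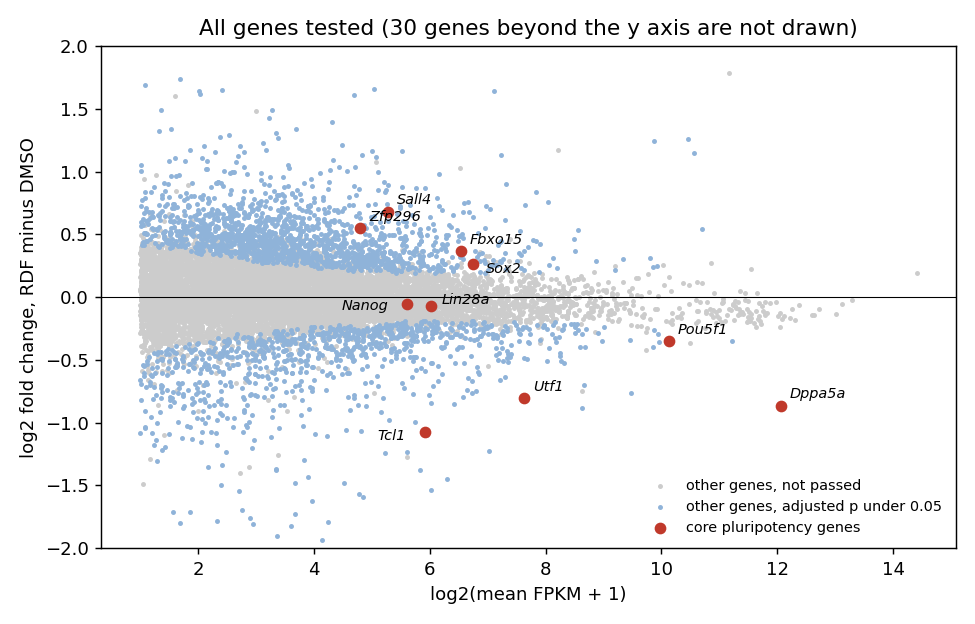
Log2 fold change against log2(mean FPKM + 1) for the 11733 genes tested, with the 10 genes labelled, and 30 genes beyond the limits of the vertical axis not drawn. The 10 genes lie in the upper range of expression, with Tcl1, Dppa5a and Utf1 below and Sall4 and Zfp296 above most genes of like level.

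The order of levels changed with treatment. In DMSO it ran Dppa5a, Pou5f1, Utf1, Sox2, Tcl1, Fbxo15, Lin28a, Nanog, Sall4 and Zfp296, from the highest mean to the lowest, and only the neighbours Tcl1 and Fbxo15 overlapped. In RDF, Tcl1 had moved to the ninth place, Fbxo15 and Lin28a followed Sox2, and Sall4 and Nanog overlapped. Among all genes of a library, Tcl1 ranked 1246 and 1130 in DMSO and 2462 and 2415 in RDF, while Sall4 went from 2934 and 3019 to 2012 and 1970. FPKM are per length, so these are comparisons of levels between genes, within the accuracy of the transcript models.

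A ratio of genes within a library does not depend on how that library was scaled. Sox2 was at 7.57% and 7.83% of the Pou5f1 level in DMSO and 11.4% and 12.2% in RDF. Sall4 was at 2.29% and 2.32%, and 4.499% and 5.06%, and Tcl1 at 5.90% and 7.01%, and 3.62% and 4.06%. Each of these ratios separated the groups without overlap, but the share of all genes for which this holds was not computed. Dppa5a was the only one of the 10 genes above Pou5f1, at 427% and 453% of it in DMSO and 314% and 302% in RDF.

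Tested as a log2 difference from Pou5f1 in the same library, 6 of the other 9 genes had risen and 3 had fallen, but 65.3% of all genes passed this test, 63.3% higher and 1.99% lower, since Pou5f1 itself fell. The fall of Utf1 (-0.45), Dppa5a (-0.51) and Tcl1 (-0.73) was thus greater than that of Pou5f1, at limma adjusted p of 0.000195, 0.00061 and 9.43e-09. Sall4 (1.03), Zfp296 (0.90), Fbxo15 (0.71) and Sox2 (0.61) rose relative to Pou5f1, at adjusted p of 2.02e-15, 2.47e-11, 7.31e-09 and 7.07e-07. Nanog (0.29, adjusted p = 0.0203) and Lin28a (0.28, adjusted p = 0.0241) were nearest the threshold. Every gene shares the spread of Pou5f1 in this fit, which makes its p-values too small. When each gene's own spread was used, the 9 calls held against a background of 65.7% (63.9% higher and 1.76% lower). Adjusted p was then 0.00307 for Utf1, 0.00505 for Dppa5a, 0.000242 for Tcl1 and 0.0443 for Nanog. That version treats the spread of a gene and that of Pou5f1 as independent, so it is no exact correction. In limma without the mean-variance trend, Nanog and Lin28a lost the call (adjusted p = 0.0554 and 0.0676). They also lost it with a trend on length and GC content taken out (0.0510 and 0.114). With single libraries left out, 4 or 5 of the 9 genes rose and 2 or 3 fell.

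Relative to Nanog, Sall4 (0.74, limma adjusted p = 0.00152) and Zfp296 (0.60, adjusted p = 0.0178) rose, and Utf1 (-0.75, adjusted p = 0.00059), Dppa5a (-0.81, adjusted p = 0.000695) and Tcl1 (-1.02, adjusted p = 6.78e-07) fell. The background was 7.14% of all genes, 4.93% higher and 2.22% lower. Every gene shares the spread of Nanog in this fit, which makes its p-values too small. With each gene's own spread the background was 13.5%, 10.3% higher and 3.22% lower. Tcl1 then had an adjusted p of 0.000238, and Fbxo15 was also called (adjusted p = 0.0244). The ratio of Sall4 to Nanog was 0.595 and 0.603 in DMSO and 0.916 and 1.12 in RDF. Pou5f1 (-0.29, adjusted p = 0.411), Sox2 (0.32, 0.338), Fbxo15 (0.42, 0.136) and Lin28a (-0.01, 0.984) did not pass. These calls rest on few libraries: without DMSO replicate 1 or 2 none of the 5 calls was kept, and without RDF replicate 1, 4 genes rose.

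**Figure D4:**
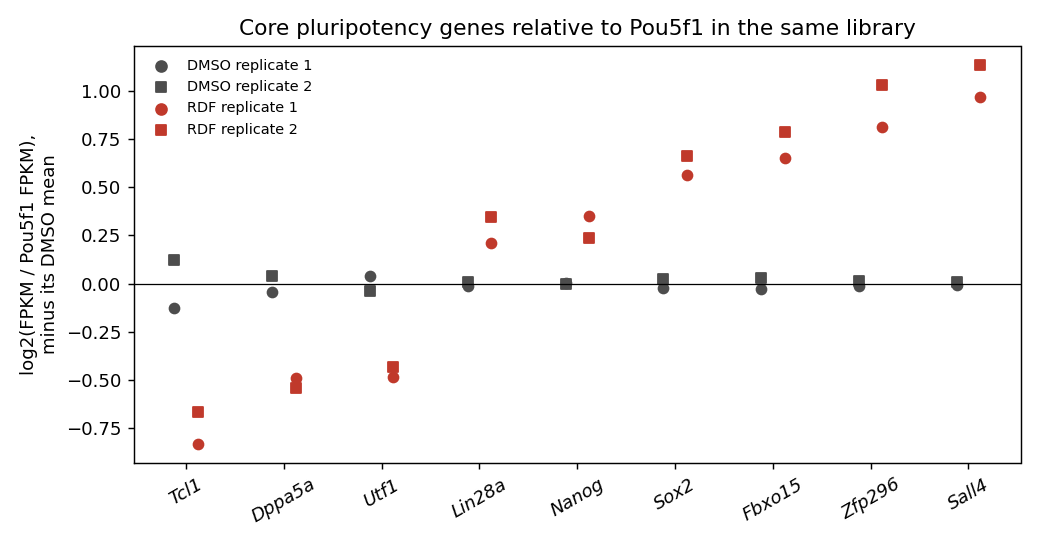
Log2 ratio of FPKM to that of Pou5f1 in the same library, minus the DMSO mean of that ratio, for each of the other 9 genes, with 1 point per library. All RDF points of Tcl1, Dppa5a and Utf1 lie below their DMSO points, and those of the other 6 genes lie above theirs. The share of all genes that separate in this way was not computed. Relative to Pou5f1, 63.3% of all genes were called higher and 1.99% lower.

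Transcript length moved with the fold changes. Over all genes the median log2 fold change was -0.07 for genes with a longest transcript under 1000 nucleotides and 0.12 for those of 4000 or more, of which 21.1% were called higher and 4.001% lower. The 4 genes that fell have longest transcripts of 619 (Dppa5a), 1224 (Utf1), 1347 (Pou5f1) and 1391 (Tcl1) nucleotides. Those of the 4 that rose are 1437 (Fbxo15), 1530 (Zfp296), 2457 (Sox2) and 5073 (Sall4) nucleotides. Nanog, with 2211, and Lin28a, with 3505, did not pass. Once a trend on length and GC content was taken out of each library, the same 8 calls were made, with log2 fold changes of 0.61 for Sall4, 0.62 for Zfp296, -0.26 for Pou5f1 and -0.74 for Utf1.

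RefSeq promoters (mouse, GRCm38.p6 table) were used for 7 of the 10 genes, and Sall4, Dppa5a and Fbxo15 were left out. For the 7 used, the 250 bases before the start were each found exactly once in NCBIM37. The 5 below lie outside the annotated span of their own gene, and overlap with transcripts of other genes was not checked. They are shown because they contrast genes that rose (Sox2, Zfp296), fell (Pou5f1, Tcl1) or did not pass (Nanog). They are read 5′ to 3′ on the gene's strand, and capitals mark matches to the motifs searched on both strands. The motifs were the octamer core ATGCAAA bound by Oct4, the composite of Sox2 and Oct4 that contains it (CATTGT, any base, then ATGCAAA), the nuclear receptor motif AGGTCA, and the cAMP response element TGACGTCA.
Nanog, chr6:122657257-122657506, plus strand: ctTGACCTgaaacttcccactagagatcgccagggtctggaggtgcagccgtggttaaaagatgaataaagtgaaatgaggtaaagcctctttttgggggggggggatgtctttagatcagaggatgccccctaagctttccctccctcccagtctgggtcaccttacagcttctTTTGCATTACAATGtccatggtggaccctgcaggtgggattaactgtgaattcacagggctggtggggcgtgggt
Sox2, chr3:34548667-34548916, plus strand: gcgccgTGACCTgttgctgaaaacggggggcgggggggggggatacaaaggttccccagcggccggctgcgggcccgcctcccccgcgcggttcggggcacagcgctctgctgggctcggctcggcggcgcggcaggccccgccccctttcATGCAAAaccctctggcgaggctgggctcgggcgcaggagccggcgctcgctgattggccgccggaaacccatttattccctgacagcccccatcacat
Zfp296, chr7:20162386-20162635, plus strand: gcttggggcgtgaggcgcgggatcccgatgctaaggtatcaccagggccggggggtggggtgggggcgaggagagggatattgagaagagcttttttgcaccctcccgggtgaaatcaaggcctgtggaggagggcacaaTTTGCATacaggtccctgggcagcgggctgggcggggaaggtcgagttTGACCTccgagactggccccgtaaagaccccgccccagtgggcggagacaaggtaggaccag
Pou5f1, chr17:35642727-35642976, plus strand: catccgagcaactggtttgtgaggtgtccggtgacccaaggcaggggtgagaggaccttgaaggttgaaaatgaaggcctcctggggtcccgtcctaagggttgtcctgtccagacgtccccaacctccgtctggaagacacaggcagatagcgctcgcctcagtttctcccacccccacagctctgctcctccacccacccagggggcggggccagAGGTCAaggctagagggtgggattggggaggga
Tcl1, chr12:106460948-106461197, minus strand: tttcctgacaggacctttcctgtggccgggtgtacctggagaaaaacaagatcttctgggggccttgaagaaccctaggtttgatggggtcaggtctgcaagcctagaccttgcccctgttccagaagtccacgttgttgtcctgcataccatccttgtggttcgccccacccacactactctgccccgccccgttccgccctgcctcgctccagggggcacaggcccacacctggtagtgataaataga

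The octamer core was found in the windows of Sox2 (99 to 93 bases before the start), Nanog (75 to 69) and Zfp296 (110 to 104), and in 4.12% of all 32851 promoters of the same length. The composite was found only in that of Nanog among the 7, at 75 to 62 bases before the start. Nanog and Pou5f1 each have 2 listed promoters, and the windows shown and distances above are those of the first. Before the other start of Nanog, the composite lay at 151 to 138 bases. Of all 27025 genes with a promoter it was found in 1, which is Nanog itself. It was searched as an exact string with 1 free base, chosen after seeing the data. The search therefore cannot tell whether other genes have looser forms of the composite, or have it outside these windows, and its rarity says nothing particular of Nanog. The motif AGGTCA was found in Sox2, Nanog, Zfp296 and Pou5f1, and in 14.02% of all promoters, and the cAMP response element in none of the 7, against 1.55% of all promoters. Genes with the octamer core here were thus 2 that rose and 1 that did not pass, and a match of letters is not a bound site. Sall4 and Fbxo15, which rose, and Dppa5a, which fell, are not in this tally. It therefore says nothing of motifs in their promoters.

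Other genes of pluripotent cells that are not restricted to the naive state also moved in both directions. Of 20 listed, 19 were tested, 2 rose and 7 fell (47.4% called, against 21.6% of all genes tested, 13.3% higher and 8.28% lower), with a median log2 fold change of 0.01. Tdgf1, the Nodal co-receptor Cripto, fell from 499 to 307 FPKM (-0.70, limma adjusted p = 0.0028), and L1td1, an RNA-binding protein, by 0.46 (adjusted p = 0.00787). Rest, the repressor of neuronal genes, rose by 0.44 (adjusted p = 0.00789). Among 30 proteins known to bind Oct4, Sox2 or Nanog, 10 rose and 2 fell (40% called), with a median of 0.10. Zfp281 (0.60, adjusted p = 0.00768), Nr0b1 (0.54, adjusted p = 0.00833) and Sall1 (0.52, adjusted p = 0.0264) rose. The lists share genes and are not independent. Nr0b1, Tfcp2l1 and Esrrb are also among the naive genes below, where Nr0b1 and Tfcp2l1 rose, and Sall1 is also among the paralogs.

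Of 8 genes with well known elements bound jointly by Oct4 and Sox2, 3 rose and 3 fell (75% called), with a median of -0.09, and 5 of the 8 belong to the 10 genes above. Lefty1, an inhibitor of Nodal signalling, fell from 20.9 to 2.23 FPKM (-2.77, limma adjusted p = 0.000291), and Fgf4 rose by 0.37 (adjusted p = 0.00913). Beside Lin28a, 17 of 18 let-7 cofactors and targets were tested, of which 4 rose and 1 fell (median -0.02). This share, 29.4%, was near the 21.6% of all genes, so the counts say nothing particular of the list. Hmga2, an architectural chromatin protein, rose by 0.82 (adjusted p = 0.00843), Dis3l2, the nuclease of uridylated let-7 precursors, by 0.62 (adjusted p = 0.0186) and Trim71, a translational repressor, by 0.55 (adjusted p = 0.0133), while Dgcr8, a partner of Drosha, fell by 0.47 (adjusted p = 0.00606).

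Around Tcl1, the 6 tested genes, among them the Akt kinases, gave 0 calls in limma, with 1 at an unadjusted p under 0.05, and its 5 Tcl1b relatives were below the filter. Skp1a, a subunit of the ligase in which F-box proteins work, had a log2 fold change of 0.22 (limma adjusted p = 0.0451) and lost the call with any library left out, while Cul1 and Rbx1 did not pass. Of 12 tested paralogs of the 10 genes, 3 rose (Sall1, Pou2f3 and Sox21) and the other 9 did not pass, a share of 25% called that was near the 21.6% of all genes. Sox15, Sox3 and Lin28b had adjusted p of 0.214, 0.355 and 0.627.

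For comparison, 6 of 12 naive genes rose and the other 6 did not pass (50% called), with a median of 0.34. Zfp42 rose the most of them (0.85, limma adjusted p = 0.000836). Of 10 tested formative and primed genes, 2 rose and 6 fell (80% called), with a median of -0.39. Among all genes tested, 21.6% were called, 13.3% higher and 8.28% lower. Otx2 was among those that fell, and its mean decreased by 60.1%. The 2 that rose were Zic2 (6.81 to 15.0 FPKM, limma adjusted p = 0.00112) and Zic5 (3.23 to 6.47 FPKM, adjusted p = 0.00332). The 10 core genes lay between, at 4 and 4. Of the 23 genes of these lists that pass the rule for naming, 7 kept the call whichever library was left out, namely Klf4, Lefty1, Lefty2, Otx2, Tdgf1, Zfp42 and Zic2. The other 16, which include all the genes named above for Oct4 partners and let-7, lost it without at least 1 library.

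**Figure D5:**
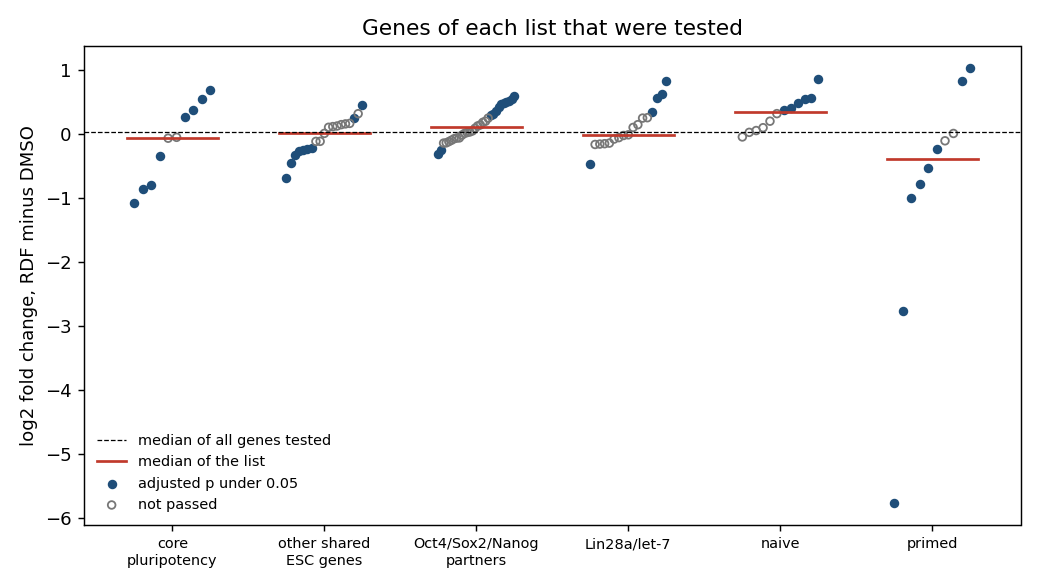
Log2 fold change, RDF against DMSO, of every tested gene in 6 of the lists, with 1 point per gene, filled where the adjusted p was under 0.05, a solid line at the median of the list and a dashed line at the median of all genes. The medians are -0.06 for the 10 core genes, 0.34 for naive genes and -0.39 for formative and primed genes, against 0.03 for all genes tested.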

How the data were processed

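RNA from 4 samples of HG165 haESCs was made into libraries from 150 ng with a stranded mRNA kit. FPKM per gene symbol were deposited by the authors. The submitters' processing notes name TopHat2 2.0.14, Bowtie2 2.1.0, Cufflinks 2.2.1 and mm9, the study's methods name the UCSC annotation, and its release, the handling of multiply mapping reads and any scaling beyond FPKM are not given in the sources used here. Values were compared as log2(FPKM + 1), which understates changes of low genes, for 11733 of 23235 genes (mean over the samples of 1 FPKM or more), with limma 3.58.1 (R 4.3.3; eBayes with trend; no replicate block) and Benjamini-Hochberg adjustment over all of them, at 0.05. The script was tested on simulated data. Changes relative to Pou5f1 or Nanog were fitted in the same way. The depth was estimated from low FPKM of single-transcript genes of at least 1500 nucleotides, and covers counting error only. Alternatives changed the pseudocount, filter, scaling, trend, block and libraries, and the length and GC correction and the own-spread fit were chosen after seeing the data, as were the motifs. The 10 genes and all lists were chosen with earlier results of these data known. By rule all 10 genes are given, and of each other list the genes named are among the 4 largest changes that passed, or genes a result turns on. Coordinates are those of NCBIM37, the assembly of mm9.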

Additional observations from a re-analysis of the deposited data

How the results depend on the processing

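With 2 samples per group and FPKM only, small changes cannot be resolved, and the cause of each shift below was not tested. Of 120 comparisons of the 10 log2 fold changes with their alternatives, 108 kept direction and side of the threshold and 11 lost the call. The 1 that turned direction was Nanog, which was not called, at -0.18 to 0.066 with a library left out, highest without RDF replicate 2. Over all genes, 1561 higher and 972 lower became 942 and 606 with no filter on low values, and 253 to 1121 and 195 to 731 with a library left out, lowest without RDF replicate 2 (253 and 195), then RDF replicate 1 (358 and 235). Of the 10 genes, 2 to 4 rose and 2 to 4 fell with a library left out, with 2 and 2 without RDF replicate 2. The counts relative to Nanog, 2 higher and 3 lower, became 0 and 1 without a mean-variance trend, and 0 to 4 and 0 to 3 with a library left out, and Lin28a ranged from -0.14 to 0.11, highest without RDF replicate 1. The labels number the replicates, but nothing says that equal numbers share a batch, and deviations of same-numbered samples correlated across genes in only 2 pairs (Pearson's r 0.134, Spearman's rho 0.114), so they were not treated as paired. A replicate block gave 1651 higher and 1066 lower, and 4 and 4 of the 10 genes. Relative to Nanog, the block made 3 genes higher and 4 lower.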
